A study of Homo sapiens with 9 samples.

Results

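HMC3 is a human line derived from microglia and immortalized with the SV40 T antigen. Its transcriptome was described here in the cells that received vehicle alone, which make up 3 of the 9 libraries of the series (VEH 1, VEH 2 and VEH 3), chosen by their label and not by any measured value. These cells were cultured on gelatin-coated plastic in EMEM with fetal bovine serum and exposed to DMSO for 6 days. The other 6 libraries came from the same line given a full or a lower dose of SLO, a cocktail of SBI-0206965 (which blocks autophagy), O-151 (which blocks DNA glycosylase) and Lopinavir (which blocks Lamin A maturation), and were not used here. The genotype label is WT for all groups. The 3 libraries represent 1 immortalized line, and no label states whether they came from separate cultures, so that the spread between them may be technical.

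Microglia are the resident macrophages of the brain. They arise from yolk sac progenitors, depend on the receptor CSF1R and on the transcription factors PU.1 (encoded by SPI1) and IRF8, and in tissue carry the purinergic receptor P2RY12, the chemokine receptor CX3CR1 and the membrane protein TMEM119, a set that is known to fade in culture. Fibroblasts and pericytes, in contrast, are mesenchymal cells that produce collagens and fibronectin, and pericytes sit on capillaries and depend on the receptor PDGFRB. These programs were read gene by gene from 31 lists holding 796 different genes.

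Levels are given in TPM, the share of a transcript scaled for gene length and library size, which allows genes to be compared within a library. A gene was called expressed when it reached at least 1 TPM in each of the 3 libraries. A gene below this level was called weak when more than 3 reads fell on it in at least 1 library, and at the floor when no library had more than 3 reads. A gene with 0 reads in all 3 libraries was counted separately, and its upper limit was set as the TPM that 3 reads would give in the shallowest library. In RNA from bulk cells, fewer cells of a type and less RNA per cell cannot be told apart.

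The libraries held 16209823 (VEH 1), 15757312 (VEH 2) and 19674841 (VEH 3) reads on genes, and 3 reads corresponded to 0.153 to 0.190 CPM (counts scaled for library size). Limits set from these reads cover counting error only. Between 21609 and 22285 genes had a read, and log2(TPM + 1) correlated between libraries across genes with r from 0.992 to 0.994. No library was a copy of another, since the squared differences between the counts of each pair were 3.48 to 3.86 times what counting error gives. Each library stood apart in 1 respect, described with its values further on: interferon-stimulated genes were highest in VEH 1, the longest transcripts were highest in VEH 2, and mitochondrial transcripts were lowest in VEH 3.

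Of 61544 genes in the annotation used, 13786 (22.4%) were expressed, 3874 were weak, 8178 were at the floor and 35706 had no read. Among the 19700 protein-coding genes, 11385 (57.8%) were expressed and 4546 (23.1%) had no read, and this 57.8% is the background against which the share expressed in each list below should be read. The median of all protein-coding genes was 5.08 TPM (mean of the libraries). On the same scale the median gene of the mesenchymal list stood at 41.5, that of the pericyte list at 9.38, that of the microglial signature at 0.031 and that of the macrophage list at 0.0219 TPM. Protein-coding genes held 95.7% ± 0.171 (SD, n = 3) of all TPM. The 17715 genes for long noncoding RNAs held 1.47% ± 0.0259, with 1489 of them expressed. A minority of genes made up most of the transcriptome, since 1991 genes at 100 TPM or more in every library held 69.9% of TPM and 86 genes at 1000 TPM or more held 23.0%.

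The most abundant nuclear transcripts coded for glycolytic enzymes, actin and its partners, chaperones and a matrix protein. GAPDH (chr12:6534512-6538374), a glycolytic enzyme and common reference gene, ranked first with 12307, 11962 and 11706 TPM in VEH 1 to VEH 3 (11992 ± 301.3, SD, n = 3). TMSB10, which binds actin monomers, followed at 12174, 11502 and 12179 TPM (11952 ± 389.1), and the values of these genes overlapped. ACTG1, the gamma actin of the cytoskeleton, stood at 8306 ± 139.1 TPM. FN1, which codes for the matrix glycoprotein fibronectin, was the highest gene of any lineage list, with 6185, 6468 and 5576 TPM (6077 ± 455.6). The chaperones HSP90AA1 (4872 ± 428.8 TPM) and HSP90AB1 (4463 ± 157.2), the lactate dehydrogenase subunit LDHA (4509 ± 93.4), the ferritin light chain FTL (4005 ± 231.1) and the beta actin ACTB (3710 ± 120.2) completed the nuclear genes among the first 20.

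The other 11 of the first 20 were mitochondrial: the ribosomal RNA MT-RNR2 (11961 ± 1383 TPM) and 10 of the 13 protein-coding genes of the mitochondrial genome. MT-ATP8 (9878 ± 1211 TPM) and MT-ND4L (7327 ± 949.6) were the highest of the latter, and MT-CO2 (6623 ± 750.6) and MT-ND4 (6636 ± 740.5) came next. MT-CO1 (5098 ± 540.8), MT-CO3 (4740 ± 442.7), MT-ND1 (4386 ± 603.2), MT-ATP6 (4062 ± 411.3), MT-CYB (3849 ± 430.5) and MT-ND5 (3799 ± 433.5) made up the rest. All 11 were lowest in VEH 3, where mitochondrial genes held 6.65% of TPM against 8.14% in VEH 1 and 8.08% in VEH 2. As a share of reads the mitochondrial genes took only 1.30% to 1.61%.

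This gap between the share of reads and the share of TPM depends on the gene lengths behind the deposited values. For 94.1% to 94.2% of genes with at least 200 reads, the deposited TPM matched the length of all annotated exons of a gene merged together, retained introns included, to within 0.01 on the log2 scale. This merged length exceeded that of the canonical transcript by a median of 1.44 times among expressed protein-coding genes (quartiles 1.15 and 2.03), whereas mitochondrial genes have no introns. When TPM was remade from the counts with canonical lengths, an alternative chosen after seeing the data, 5 of the first 20 genes were mitochondrial and 13 of the 20 were shared with the order as deposited. Genes for ribosomal proteins then took 4 of the 20 places, compared with 0 as deposited. GAPDH stayed first at 12919 TPM, FN1 moved to 7206 and TMSB10 to 6905.

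**Figure D1:**
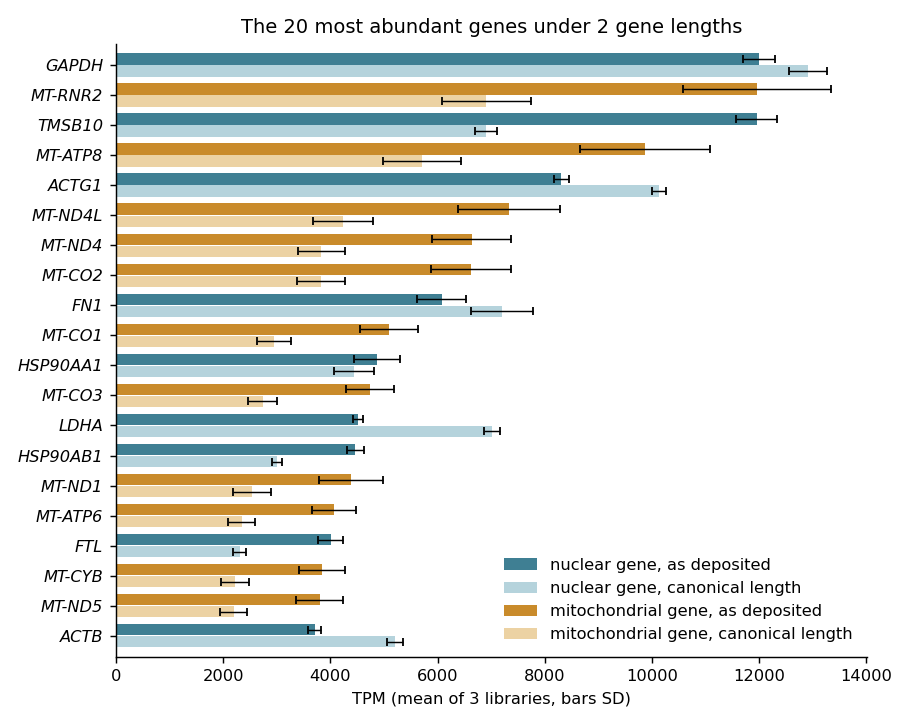
The 20 genes with the highest mean TPM, as deposited (dark bars) and remade with the canonical transcript length (pale bars), on a linear axis from 0. Bars are means of 3 vehicle libraries and error bars SD. Of the 20 genes, 11 are mitochondrial (ochre), and each of these is lower with the canonical length, MT-RNR2 falling from 11961 to 6913 TPM, whereas GAPDH is at 11992 and 12919.

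The defining markers of microglia were absent or near the detection limit. P2RY12 (chr3:151336843-151384753) and CX3CR1 (chr3:39263495-39281735) had no read in any library, which allows up to 0.398 and 0.254 TPM. TMEM119 (chr12:108589851-108598320) had 1 read in VEH 1 and 0 in the other libraries. P2RY13 (a second ADP receptor), SALL1 (a transcription factor of microglial identity), GPR34 (a lysophospholipid receptor) and SLC2A5 (a fructose transporter) also had no read, with limits between 0.140 and 0.483 TPM.

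The 6 expressed members of the 13-gene microglial signature (46.2%) were genes with known roles outside microglia as well. The TAM receptor ligand GAS6 stood at 20.4, 22.1 and 22.3 TPM, its receptor MERTK at 14.4, 16.2 and 15.6 TPM, and the second ligand PROS1 at 9.23, 7.59 and 6.18 TPM. OLFML3, a secreted olfactomedin-like protein, and ADGRG1, an adhesion G protein-coupled receptor, were low (2.53 ± 0.110 and 1.78 ± 0.532 TPM).

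Macrophage and myeloid genes were close to absent as a group: 2 of 28 (7.14%) were expressed, 4 were weak, 11 were at the floor and 11 had no read. The 28 genes together reached 4.52 ± 0.342 TPM. AIF1, which codes for the calcium-binding protein IBA1 and is the usual stain for microglia, had 1 read in VEH 1 and 0 in VEH 2 and VEH 3 (0.239, 0 and 0 TPM). CSF1R, the receptor for the survival factors CSF1 and IL34, had 2, 3 and 5 reads (0.115, 0.181 and 0.239 TPM). The phagocyte integrin subunit ITGAM had 0, 0 and 2 reads, while ITGAX, another integrin alpha subunit, had 6, 8 and 5 (0.251, 0.350 and 0.174 TPM).

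The 2 expressed members rested on few reads. TREM2, a lipid receptor of microglia, had 6, 4 and 6 reads, or 1.63, 1.13 and 1.35 TPM (1.37 ± 0.247), and CD14, the co-receptor for lipopolysaccharide, had 8, 6 and 15 reads, or 1.44, 1.13 and 2.25 TPM (1.61 ± 0.577). Both lay below the threshold when CPM or canonical lengths were used in place of the deposited TPM. TYROBP, the adaptor through which TREM2 signals, had no read, although this short gene could hide up to 1.03 TPM. No read fell on the complement genes C1QA, C1QB and C1QC, the Fc receptor gene FCER1G, the scavenger receptor CD163 or the oxidase subunit CYBB. Their limits ran from 0.160 to 0.965 TPM. The Fc receptor genes FCGR1A and FCGR3A also had no read. They have close copies, and reads matching several places are not counted, so no limit is given for them. CD68 had 3, 1 and 1 reads, but 81.6% of its exon sequence is shared with another gene of the same strand, and reads there are left uncounted as ambiguous, so that its level cannot be judged from these values.

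The remaining macrophage genes had at most 6 reads in any library. They were the sialic acid receptor CD33 (0.178 ± 0.116 TPM), the lysosomal protein LAPTM5 (0.296 ± 0.0795), the invariant chain CD74, the lysozyme LYZ, the protease CTSS, the receptors MARCO, MRC1, MSR1 and FCGR2A and the costimulator CD86, together with VSIG4 and LY86 without a read.

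**Figure D2:**
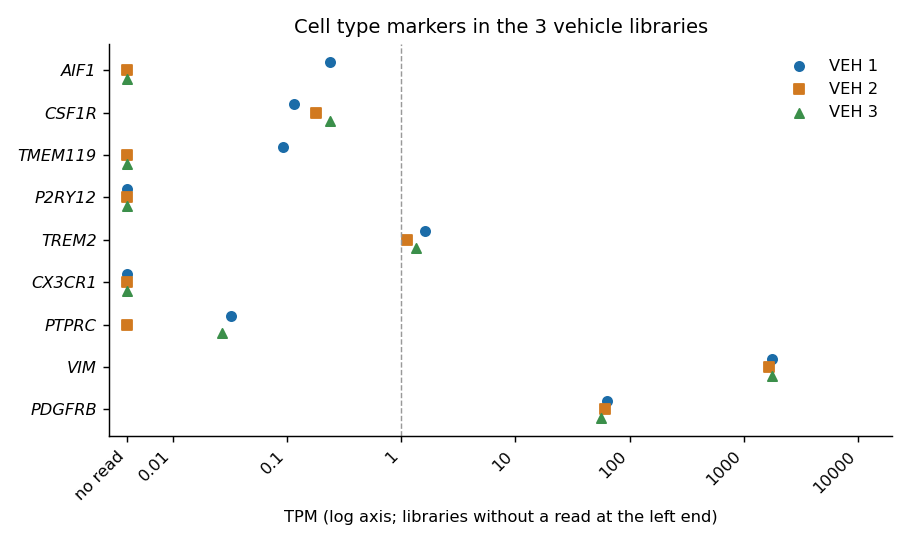
TPM of 9 cell type markers in each vehicle library, on a log axis, with libraries without a read placed at the left end and a dashed line at 1 TPM. VIM lies between 1666 and 1761 TPM and PDGFRB between 56.2 and 64.0, whereas AIF1, CSF1R, TMEM119, P2RY12, CX3CR1 and PTPRC lie at or below 0.239 TPM in every library.

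The regulators of myeloid identity were divided. SPI1, IRF8 and the lymphoid and myeloid regulator IKZF1 had no read, whereas 7 of 18 myeloid transcription factors (38.9%) were expressed. CEBPB, an inducible factor of the inflammatory response present in many cell types, was the highest with 91.8, 80.7 and 86.5 TPM (86.3 ± 5.51). It was followed by the broadly used factor MEF2A (57.3 ± 0.199 TPM) and by RUNX1, a master factor of blood formation, at 32.0, 36.0 and 34.9 TPM (34.3 ± 2.03). MITF (13.5 ± 0.291 TPM) and TFEB (2.67 ± 0.0648), which drive lysosomal and pigment genes, as well as BATF3 (6.48 ± 1.14) and KLF4 (1.93 ± 0.550), were lower, and KLF4 missed the threshold in VEH 1 with canonical lengths (0.934 TPM). CEBPA reached 0.570, 1.43 and 0.474 TPM, and MEF2C was weak.

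Genes shared by all leukocytes were mostly missing. PTPRC, which codes for the leukocyte common antigen CD45, had 1, 0 and 1 reads over a merged exon length of 15436 bases. Of 21 pan-leukocyte genes, 5 (23.8%) were expressed, and 12 were at the floor or without a read, among them CD53, CD37, CD48, CD52, LCP2, HCLS1 and PTPN6. NCF1, also without a read, has near-identical copies that the counting cannot separate. RAC2, the GTPase of the phagocyte oxidase, was an exception at 27.6, 24.3 and 27.8 TPM (26.6 ± 1.95), and ARHGDIB, a regulator of small GTPases, reached 15.6 ± 2.42 TPM. The actin regulator CORO1A (3.79 ± 0.734 TPM) and the Rac activator DOCK2 (2.51 ± 0.196) were low, and the actin bundler LCP1, VAV1 and WAS were weak. None of the 10 lymphoid and erythroid genes was expressed, with 9 lacking a read and CD79A at 1 read per library.

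Of 20 genes raised in damage-associated microglia, 11 (55.0%) were expressed, a share near that of all protein-coding genes. AXL, a TAM receptor that clears dying cells, ranked 98 among all genes with 956, 989 and 986 TPM (977.0 ± 18.4). The ferritin heavy chain FTH1 (775.2 ± 23.0 TPM), the tetraspanin CD63 (689.3 ± 8.24), the protease inhibitor TIMP2 (594.2 ± 17.5), the MHC light chain B2M (519.3 ± 16.0) and the protease CTSB (106.9 ± 2.38) followed. APOE, the lipid carrier named first in this state, was weak at 1.24, 0.863 and 1.49 TPM, and SPP1, GPNMB, CST7 and CLEC7A were at the floor, while LPL, IGF1 and CCL4 had no read.

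Mesenchymal and fibroblast genes had the highest summed level of the 12 lineage lists, with 27 of 36 (75%) expressed and 12375 ± 629.7 TPM in sum. FN1 contributed 6077 TPM of this sum. VIM, the intermediate filament of mesenchymal cells, reached 1761, 1666 and 1757 TPM (1728 ± 53.7). The collagen chain COL1A1 stood at 1214, 1362 and 1135 TPM (1237 ± 115.5), and the matrix protein SPARC at 992.2, 991.5 and 888.7 TPM (957.5 ± 59.6). The calcium-binding protein S100A6, the collagen crosslinking enzyme LOX and the hyaluronan receptor CD44 lay between 345 and 397 TPM.

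The 2 chains of type I collagen were far apart. COL1A2 reached 43.2, 44.2 and 37.0 TPM (41.5 ± 3.88), although the common form of type I collagen contains both. With canonical lengths the values were 1089 for COL1A1 and 51.1 TPM for COL1A2. The type V collagen chains COL5A1 (84.9 ± 14.5 TPM) and COL5A2 (158.6 ± 20.2) lay closer together. So did COL6A1 and COL6A2 of type VI collagen (74.0 ± 5.20 and 82.97 ± 11.02). COL6A3, another chain of type VI collagen, was weak.

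Several genes that define tissue fibroblasts were not expressed. COL3A1, LUM, POSTN, CDH11 and PRRX1 had no read, DCN was at the floor, and FAP was weak with 0, 4 and 5 reads. DPT also had no read, but more than 50% of its exon sequence is shared with another gene. PDGFRA, the receptor of fibroblast progenitors, was expressed at 1.31, 1.23 and 1.11 TPM (1.22 ± 0.0979), but fell below the threshold in VEH 3 with canonical lengths (0.956 TPM). The surface markers THY1 (179.7 ± 7.45 TPM), ENG (44.8 ± 1.09) and NT5E (17.3 ± 2.63), used to identify mesenchymal stromal cells, were all expressed, as were the transcription factors TWIST1 (41.5 ± 6.13), SNAI2 (25.3 ± 2.71), ZEB1 (18.7 ± 0.697) and ZEB2 (17.9 ± 0.488).

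Of 24 pericyte and smooth muscle genes, 17 (70.8%) were expressed, with a sum of 3525 ± 14.5 TPM. PDGFRB, the pericyte receptor for PDGF-B, was present at 64.0, 60.4 and 56.2 TPM (60.2 ± 3.91). The contractile genes TPM2 (1104 ± 14.9 TPM), MYL9 (1041 ± 10.9), CALD1 (716.8 ± 1.78) and TAGLN (310.1 ± 6.54) led the list, with CNN1 at 70.2 ± 6.01 TPM. Those proteins also serve the cytoskeleton of many cultured adherent cells. Surface markers of pericytes were MCAM at 115, 125 and 125 TPM (121.5 ± 5.53) and CSPG4, which codes for NG2, at 22.1, 19.4 and 22.1 TPM (21.2 ± 1.55).

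Transcription factors known from brain pericytes and meninges were expressed, namely FOXC1 (24.3 ± 0.906 TPM), TBX18 (13.7 ± 0.931) and ZIC1 (11.5 ± 0.653). NOTCH3, the vascular mural receptor, reached 10.8 ± 1.502 TPM, and the potassium channel subunit KCNJ8 7.99 ± 1.09. RGS5, a regulator of G protein signalling usually abundant in pericytes in tissue, stood at only 1.81 ± 0.246 TPM, and the smooth muscle actin ACTA2 at 4.26 ± 0.386 TPM. DES, ABCC9 and ANPEP were weak, MYH11 and DLK1 were at the floor, and HIGD1B and FOXF2 had no read.

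**Figure D3:**
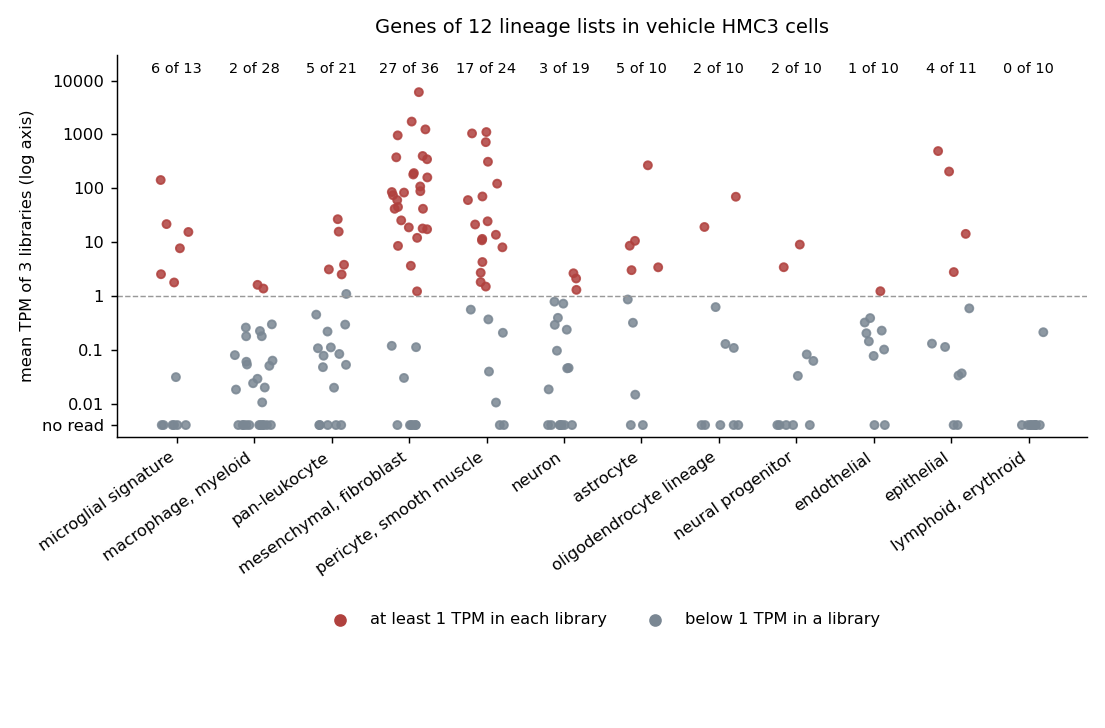
Mean TPM of each gene of 12 lineage lists over 3 vehicle libraries, on a log axis with genes without a read at the bottom and a dashed line at 1 TPM. Red points are expressed genes, at 1 TPM or more in each library, and the count expressed stands above each list. Mesenchymal (27 of 36) and pericyte (17 of 24) genes reach above 1000 TPM, whereas the 2 expressed macrophage genes of 28 lie below 2 TPM.

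Few genes of the neural lineages were expressed. Of 19 neuronal genes 3 were expressed, each low: the GABA-synthesizing enzyme GAD1 (2.63 ± 0.0293 TPM), the synaptic calcium sensor SYT1 (2.11 ± 0.308) and the fusion protein SNAP25 (1.296 ± 0.183). SLC17A7, TUBB3 and SYP were weak, MAP2 and RBFOX3 were at the floor, and DCX, STMN2 and NEFL had no read. With canonical lengths TUBB3 passed the threshold at 1.61, 1.90 and 1.91 TPM, which made 4 expressed neuronal genes, and SNAP25 stood at 7.43 TPM. Among 10 astrocyte genes 5 were expressed. The gap junction gene GJA1 was by far the highest of them at 269.8, 264.7 and 264.4 TPM (266.3 ± 3.02), followed by the growth factor receptor FGFR3 (10.5 ± 0.715 TPM), the factor SOX9 (8.56 ± 1.51), the glutamate transporter SLC1A3 (3.40 ± 0.652) and the enzyme ALDOC (3.01 ± 0.331). GFAP and S100B were at the floor, ALDH1L1 was weak, and AQP4 and SLC1A2 had no read. With canonical lengths ALDH1L1 passed at 2.46, 1.88 and 2.32 TPM, which made 6 expressed astrocyte genes, and SLC1A3 stood at 10.6 TPM.

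In the oligodendrocyte lineage, 2 of 10 genes were expressed, namely the phosphodiesterase CNP (69.4 ± 0.780 TPM) and the factor MYRF (19.1 ± 1.12). The lineage factors OLIG1, OLIG2 and SOX10 had no read, and the myelin gene MBP was weak. Neural progenitor genes comprised PAX6, an eye and forebrain factor, at 9.34, 9.19 and 8.40 TPM (8.98 ± 0.503), and MSI1, an RNA-binding protein of stem cells, at 3.41 ± 0.457 TPM. On the canonical length PAX6 stood at 39.0 TPM. SOX2 was at the floor, and NES, the intermediate filament of progenitors, had no read.

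Endothelial and epithelial genes were mostly weak or absent as well. Of 10 endothelial genes only TIE1 was expressed (1.22 ± 0.178 TPM), PECAM1 and EMCN had no read and CLDN5 was at the floor. KDR, ERG, TEK, FLT1, VWF and CDH5 were weak. Of 11 epithelial genes 4 were expressed. KRT18, a keratin of simple epithelia, was high at 468, 476 and 525 TPM (489.5 ± 30.7), and KRT7 reached 172, 213 and 227 TPM (204.1 ± 28.4). KRT8, the usual partner of KRT18, stood at 14.2 ± 0.700 TPM, and the splicing regulator ESRP1 at 2.77 ± 0.439. CDH1, KRT14 and KRT19 were at the floor, EPCAM and CLDN4 were weak, and KRT5 and GRHL2 had no read.

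HOX genes, which record the position of a cell along the body axis and are silent in the forebrain, were expressed almost entirely from 1 of the 4 clusters. The HOXB cluster on chromosome 17 had 7 of 10 genes expressed and 80.7 ± 5.13 TPM in sum (76.5, 79.3 and 86.4). HOXB7 was highest (21.3, 26.1 and 23.7 TPM), followed by HOXB2 (17.99, 17.67 and 20.99) and HOXB4 (13.3, 14.6 and 17.4). HOXB3, HOXB9, HOXB6 and HOXB5 lay between 2.36 and 7.60 TPM on average, whereas HOXB8, flanked by expressed neighbours, was weak (0.863, 0.387 and 1.13 TPM).

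The HOXA cluster on chromosome 7 was close to silent, with 0 of 11 genes expressed and 11 reads over the 3 libraries, compared with 2218 reads on HOXB. From the HOXC cluster only HOXC6 (2.04 ± 0.659 TPM) and from the HOXD cluster only HOXD10 (2.42 ± 0.390 TPM) passed, and the sums were 3.58 ± 1.02 and 5.72 ± 1.20 TPM. HOXC5 cannot be judged, as over 50% of its exon sequence is shared.

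**Figure D4:**
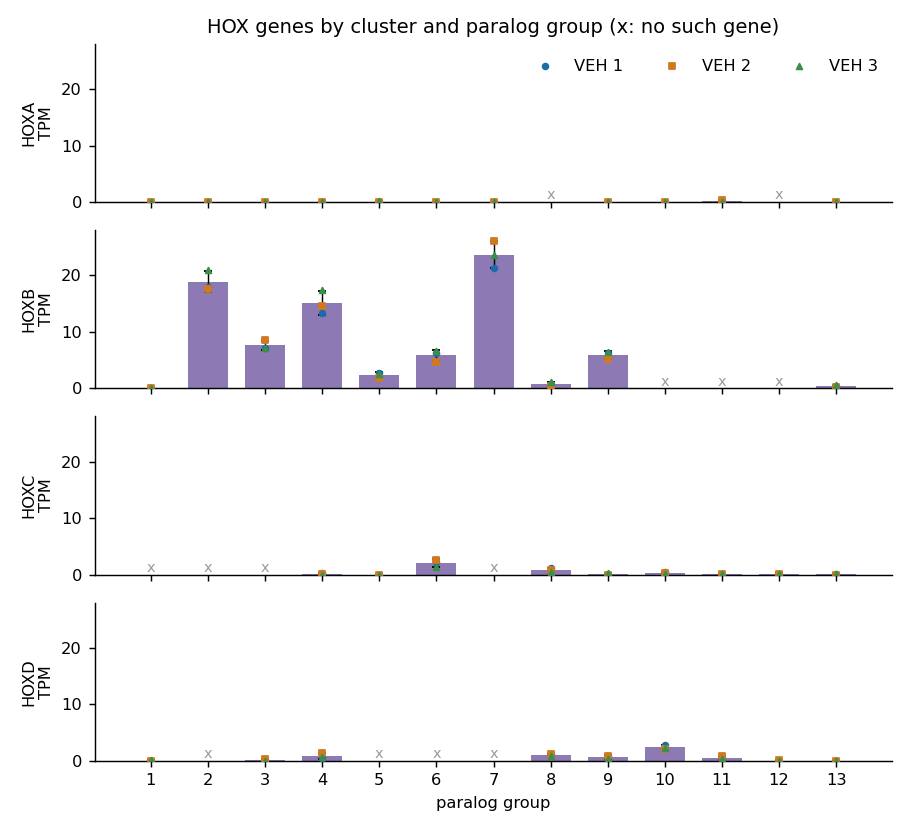
TPM of the 39 HOX genes by cluster and paralog group, on linear axes from 0. Bars are means of 3 vehicle libraries, error bars SD, points the single libraries, and a grey x marks paralog groups a cluster does not have. HOXB genes of groups 2 to 9 other than HOXB8 stand between 2.36 and 23.7 TPM, and no HOXA bar rises above 0.260 TPM.

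Promoter sequence was examined as a feature that the choice of libraries and lists did not use. Of the RefSeq windows of 300 bases (250 before to 50 after a transcription start), 15173 matched a protein-coding gene of the files. The median number of CG dinucleotides was 27 in windows of expressed genes (quartiles 19 and 35), 20 in weak genes, 10 in genes at the floor and 5 in genes without a read, compared with 22 over all windows. The motif TATAAA, searched on both strands, was present in 5.04% of windows of expressed genes and in 20.7% of genes without a read, with 9.58% over all. Among the 60 windows of genes averaging 1000 TPM or more, however, 11.7% carried it. These are descriptions of letters in a window, and neither the methylation of these promoters nor any factor's binding was measured.

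The windows of 4 genes on which the lineage description turns are given below, from RefSeq on GRCh38.p14, with each CG in capitals. FN1 and AXL are shown as abundant genes of the mesenchymal and damage-associated lists, P2RY12 as a microglial gene without a read and TREM2 as a myeloid gene at the detection limit. The FN1 window is chr2:215436019-215436318 on the minus strand, that of AXL chr19:41218973-41219272 on the plus strand, that of P2RY12 chr3:151384704-151385003 on the minus strand and that of TREM2 chr6:41163067-41163366 on the minus strand.
FN1: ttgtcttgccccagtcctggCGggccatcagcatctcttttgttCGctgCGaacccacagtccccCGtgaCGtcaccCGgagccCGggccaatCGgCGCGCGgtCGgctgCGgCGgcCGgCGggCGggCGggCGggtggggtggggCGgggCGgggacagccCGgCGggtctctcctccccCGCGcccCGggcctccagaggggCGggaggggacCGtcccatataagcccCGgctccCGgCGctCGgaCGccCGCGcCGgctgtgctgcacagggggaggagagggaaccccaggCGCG
AXL: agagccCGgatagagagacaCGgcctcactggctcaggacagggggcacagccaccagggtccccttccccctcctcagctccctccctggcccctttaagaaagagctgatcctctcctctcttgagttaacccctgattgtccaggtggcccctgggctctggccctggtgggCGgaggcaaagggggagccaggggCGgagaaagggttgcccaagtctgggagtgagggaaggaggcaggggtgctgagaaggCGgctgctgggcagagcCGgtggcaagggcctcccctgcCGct
P2RY12: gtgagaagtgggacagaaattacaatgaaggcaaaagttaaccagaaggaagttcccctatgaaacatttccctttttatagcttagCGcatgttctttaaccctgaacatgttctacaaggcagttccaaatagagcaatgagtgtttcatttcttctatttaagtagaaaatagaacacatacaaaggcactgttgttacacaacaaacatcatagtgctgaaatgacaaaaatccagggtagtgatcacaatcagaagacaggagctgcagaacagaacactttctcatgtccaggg
TREM2: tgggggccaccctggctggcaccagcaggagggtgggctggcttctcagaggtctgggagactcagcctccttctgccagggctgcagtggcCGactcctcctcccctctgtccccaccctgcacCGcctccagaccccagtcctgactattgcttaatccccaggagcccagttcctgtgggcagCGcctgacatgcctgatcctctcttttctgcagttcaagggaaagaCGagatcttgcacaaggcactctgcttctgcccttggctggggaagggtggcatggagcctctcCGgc

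FN1 had 38 CG dinucleotides, above the upper quartile of expressed genes, and P2RY12 had 1. The P2RY12 window carried the TATAAA motif only on the strand opposite to the one printed, as tttata in the letters shown. AXL, however, had 7, as few as CX3CR1 (7) and close to TREM2 (5), though it was expressed at 977.0 TPM. GAPDH had 28, near the median of expressed genes. The number of CG dinucleotides thus did not order these genes by level.

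Phagocytic and scavenger receptors were expressed in 15 of 24 cases (62.5%), without those restricted to macrophages. Calreticulin (CALR), an endoplasmic reticulum chaperone that can mark dying cells, reached 2084 ± 78.8 TPM. The 3 TAM receptors differed in level, with AXL at 977.0, MERTK at 15.4 ± 0.948 and TYRO3 at 7.95 ± 0.245 TPM. The integrin subunit ITGAV (151.4 ± 7.48 TPM), the lipoprotein receptor LRP1 (52.3 ± 5.24) and the inhibitory receptor SIRPA (46.3 ± 2.96) were lower. The scavenger receptors MSR1, MARCO, CD36 and STAB1 were at the floor, as was the engulfment receptor MEGF10, and the phosphatidylserine receptor TIMD4 had no read.

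The 3 highest genes of innate sensing coded for a kinase and for adaptors. Of 33 pattern recognition receptors and adaptors, 16 (48.5%) were expressed. The kinase IRAK1 was the highest at 150.6, 157.1 and 168.8 TPM (158.9 ± 9.25), followed by MAVS, the adaptor of RNA sensors (77.6 ± 3.77), and TICAM1, the adaptor of TLR3 and TLR4 (23.9 ± 0.732). The DNA sensor CGAS (14.6 ± 0.212 TPM) and its effector STING1 (12.97 ± 0.948) were both expressed, and IRAK4 reached 12.4 ± 0.645 TPM.

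Among the 10 Toll-like receptors only TLR4, the lipopolysaccharide receptor, was expressed (2.66, 3.431 and 3.995 TPM). Its partners CD14 (1.61 TPM) and LY96 (6.37, 1.11 and 4.41 TPM from 12, 2 and 10 reads) were low and, for LY96, spread widely, and both missed the threshold in VEH 2 with canonical lengths (0.796 and 0.643 TPM). TLR3 reached 1.46, 2.21 and 0.990 TPM and so missed the threshold in VEH 3. TLR5 and TLR6 were weak, TLR1 and TLR2 were at the floor, and TLR7, TLR8, TLR9 and TLR10 had no read, although TLR9 shares over 50% of its exon sequence. Of inflammasome genes, NLRP1 (8.05 ± 0.555 TPM) and NLRP3 (2.86 ± 0.440, with 66.0% of its exons shared and its level therefore a minimum) were expressed, CASP1 was weak, and the adaptor PYCARD and the sensor AIM2 had no read. IFIH1, the RNA sensor MDA5, was at 8.91, 5.17 and 5.71 TPM, highest in VEH 1.

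Purinergic receptors, through which microglia sense ATP, were mostly weak or absent. Of 23 genes 5 (21.7%) were expressed. ADORA2B, a low-affinity adenosine receptor, stood at 38.4, 41.6 and 40.1 TPM (40.05 ± 1.598), and NT5E, the enzyme CD73 that makes adenosine from AMP, at 14.5, 17.6 and 19.8 TPM. The ion channel P2RX4 (5.37 ± 0.713 TPM, or 14.02 with the canonical length), P2RY11 (4.19 ± 0.266, with 55.9% of its exons shared) and the adenosine receptor ADORA1 (3.51 ± 0.340) were low. P2RX7, the ATP channel upstream of the inflammasome, had 7, 7 and 5 reads (0.374, 0.391 and 0.222 TPM), and the UDP receptor P2RY6 had 2, 7 and 12. P2RX5 and P2RX6 were weak as well, and P2RX1, P2RX2 and P2RX3 had no read.

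Cytokine receptors included chains for IL-6 family cytokines and for interferons. Of 53 cytokine receptor genes, 25 (47.2%) were expressed. IL6ST, the shared signal transducer gp130, was the highest at 207.8, 225.2 and 209.2 TPM (214.1 ± 9.63), and the oncostatin M receptor OSMR followed at 158.5 ± 6.78 TPM, with LIFR at 24.7 ± 1.23 and IL6R at only 3.37 ± 0.344 TPM. Of the specific receptors of this family, IL11RA was weak (0.764 ± 0.175 TPM) and CNTFR was at the floor with 1, 1 and 2 reads. The IL-4 and IL-13 receptor chain IL13RA1 reached 100.8 ± 3.08 TPM. Both interferon-gamma receptor chains (IFNGR2 at 93.8 ± 3.39 and IFNGR1 at 38.3 ± 0.435 TPM) and both chains for type I interferon (IFNAR1 at 93.4 ± 3.01 and IFNAR2 at 9.12 ± 1.08) were expressed, and so was TGFBR1 (91.6 ± 2.28).

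Some members of this list are better known from blood cells. IL7R, the interleukin 7 receptor of lymphocytes, stood at 70.8, 75.5 and 76.8 TPM (74.4 ± 3.18), whereas its partner IL2RG was without a read but shares over 50% of its exons. KIT, the stem cell factor receptor, was at 23.0, 23.8 and 23.1 TPM (23.3 ± 0.399). IL1R1 (5.12 ± 0.391) and its accessory chain IL1RAP (9.45 ± 0.221) were expressed, IL18R1 was weak, IL1R2 was at the floor, and IL18RAP and IL1RL1 had no read. For CSF2RA, IL3RA, CRLF2, IL9R and the purinergic receptor P2RY8, which lie on both X and Y, reads match more than 1 place and are not counted, and so their 0 carries no information.

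The TNF receptor superfamily had 14 of 29 genes expressed (48.3%). TNFRSF10D, a decoy receptor for the death ligand TRAIL, led at 310.0, 355.3 and 378.1 TPM (347.8 ± 34.6). The TWEAK receptor TNFRSF12A (208.1 ± 4.18 TPM), the death receptor TNFRSF10B (127.9 ± 1.45), the TNF receptor TNFRSF1A (92.1 ± 6.07), CD40, the costimulatory receptor of antigen-presenting cells (34.4 ± 2.29), and RELT (18.8 ± 1.44) came next. The second TNF receptor TNFRSF1B, common on leukocytes, was weak at 0.657 ± 0.151 TPM, and the lymphotoxin receptor LTBR was at the floor with 2, 1 and 0 reads. FAS was weak at 0.769, 0.704 and 0.560 TPM from 63 to 72 reads, and TNFRSF4 was at the floor. With canonical lengths FAS passed the threshold at 3.34, 3.07 and 2.42 TPM.

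None of the 28 chemokine and chemoattractant receptors was expressed. CCR10 (8, 9 and 10 reads, 0.971 ± 0.0835 TPM), CXCR4 (8, 4 and 12 reads, 0.755 ± 0.301 TPM) and the complement receptor C5AR1 (8, 6 and 6 reads, 0.642 ± 0.151 TPM) were weak, and CCR10 was the nearest to the threshold. Of the others, 11 were at the floor and 14 had no read, among them CCR1, CCR2 and CCR3, which recruit monocytes and other leukocytes. CCR4 was at the floor, and CCR6 shares over 50% of its exons.

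The highest cytokine genes coded for MIF, ligands of the TGF-beta family and ligands of gp130. Of 61 genes 19 (31.1%) were expressed. MIF, a cytokine found in most cells, was the highest at 279.5, 250.1 and 250.1 TPM (259.9 ± 17.0), although 48.9% of its exon sequence is shared with another gene. TGFB2 stood at 218.6, 216.2 and 207.0 TPM (213.9 ± 6.17), TGFB1 at 72.0 ± 4.45 and INHBA, the activin A subunit, at 42.8 ± 2.58 TPM. IL11 (80.9 ± 4.49 TPM) and LIF (30.03 ± 1.58), which signal through gp130, were expressed alongside their common receptor chain. IL11RA, the specific receptor for IL11, was weak. However, 32.5% of the exon sequence of IL11RA is shared with another gene, so its level is a minimum. With the canonical length IL11RA averaged 1.35 TPM.

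Classical inflammatory cytokines were low. IL6 reached 4.67, 3.87 and 3.77 TPM (4.10 ± 0.491) and IL1B 1.38, 1.13 and 1.31 TPM from 14, 11 and 16 reads. With canonical lengths IL6 stood at 9.09 and IL1B at 1.47 TPM. IL1A and TNF were at the floor (2, 2 and 3 reads, and 0, 0 and 2 reads), and IL1RN, IL10, IFNB1, IFNG, IL2, IL3 and IL4 had no read. Of the ligands of CSF1R, CSF1 was expressed at 4.52 ± 0.487 TPM and IL34 had no read.

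Chemokines were sparse, with 6 of 38 (15.8%) expressed. CXCL16, a membrane-bound chemokine and scavenger receptor, was the highest (12.53, 10.99 and 7.86 TPM), followed by the neutrophil attractant CXCL8 (7.56, 8.86 and 7.34). CCL26 (5.99 ± 2.35 TPM), the monocyte attractant CCL2 (3.20 ± 0.582), CXCL1 (3.16 ± 0.470) and CXCL5 (2.12 ± 0.490) were the others, and CXCL5 missed the threshold in VEH 1 with canonical lengths (0.914 TPM). The microglial chemokines CCL3 and CCL4, which both have near-identical copies, had 3 reads or fewer in every library. CCL5 was at the floor, and CCL1, CCL7 and CXCL10 had no read.

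Of 54 receptor tyrosine kinases, 28 (51.9%) were expressed, compared with 57.8% of all protein-coding genes. After AXL, the hepatocyte growth factor receptor MET was the highest at 407.5, 419.5 and 422.2 TPM (416.4 ± 7.82). EPHA2, an ephrin receptor (120.7 ± 11.1 TPM), the Wnt co-receptors PTK7 (79.2 ± 6.51) and RYK (65.1 ± 1.18), and PDGFRB followed. EGFR (58.2 ± 5.55 TPM), ERBB2 (31.8 ± 1.70), ERBB3 (17.4 ± 1.32) and FGFR1 (31.0 ± 0.312) were expressed, whereas ERBB4 and FGFR2 were at the floor. NTRK2, the BDNF receptor, had no read.

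Receptors for neurotransmitters were expressed in 13 of 69 cases (18.8%). The histamine receptor HRH1 (35.2, 37.6 and 33.1 TPM), the GABA receptor subunit GABBR1 (21.8 ± 1.12) and the nicotinic subunits CHRNA5 (18.3 ± 1.47) and CHRNB1 (8.42 ± 0.173) were among the highest, with the serotonin receptor HTR7 at 5.29 ± 0.834 TPM. Of the AMPA and kainate glutamate receptor subunits, GRIA1, GRIA2, GRIK1 and GRIK2 were at the floor, GRIK4 (6, 9 and 8 reads), GRIK5 and GRIA4 were weak, and GRIA3 and GRIK3 had no read.

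Nuclear receptors had 24 of 44 genes expressed (54.5%). NR2F2, a regulator of venous and mesenchymal fate, was the highest at 253.4 ± 9.31 TPM, and the glucocorticoid receptor NR3C1 was next at 126.2, 137.5 and 124.0 TPM (129.2 ± 7.25). The clock repressor NR1D2 (105.3 ± 2.12 TPM), the fatty acid receptor PPARD (74.8 ± 4.36), RXRB (73.6 ± 1.44) and NR2C2 (42.2 ± 1.93) followed. NR3C2 was weak, ESR1 and ESR2 were at the floor, and PGR had no read.

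Of 19 antigen presentation genes 11 were expressed (57.9%), a share near that of all protein-coding genes. B2M (519.3 TPM), HLA-E (222.8 ± 15.9), the loading factor TAPBP (129.1 ± 5.28), HLA-C (94.8 ± 13.2) and HLA-B (56.7 ± 7.73) were the most abundant genes of class I described here, whereas HLA-F had 0, 1 and 1 reads. In class II, HLA-DRA, HLA-DRB1, HLA-DQA1 and HLA-DQB1 had no read, the class II regulator CIITA had 1, 0 and 3 reads, and yet HLA-DPB1 was expressed at 8.57, 8.61 and 9.45 TPM, HLA-DMA at 6.35, 3.81 and 4.11 TPM and HLA-DPA1 at 2.01, 1.89 and 1.97 TPM. HLA genes have similar sequences that the counting could split. Of the 11 genes over the floor, 9 were highest in VEH 1.

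The cells expressed the machinery of division at high levels, with 26 of 28 proliferation and checkpoint genes expressed (92.9%). TOP2A, a topoisomerase of dividing cells, was at 1446 ± 31.5 TPM, and PCNA (1012 ± 10.4), CCNB1 (1005 ± 23.2), MKI67 (539.1 ± 48.2), CDK1 (433.7 ± 12.9) and CCND1 (413.6 ± 61.1) followed. The inhibitor gene CDKN2A, which codes for p16 and p14ARF, was also abundant at 126.4, 122.1 and 119.6 TPM (122.7 ± 3.42), alongside the cell cycle inhibitors CDKN1A (148.7 ± 24.0 TPM) and RB1 (130.2 ± 1.42). TERT, the telomerase catalytic subunit, was weak with 4, 2 and 4 reads, and CCND2 was at the floor.

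All 7 genes around the targets of the SLO compounds were expressed in vehicle cells. The autophagy kinase ULK1, inhibited by SBI-0206965, stood at 20.2, 18.02 and 18.36 TPM (18.9 ± 1.17), and its relative ULK2 at 1.35 ± 0.0623 TPM. The DNA glycosylase gene OGG1, the target of O-151, stood at 8.12, 9.33 and 9.07 TPM (8.84 ± 0.641), and the lamin protease ZMPSTE24, blocked by Lopinavir, at 120.8, 143.3 and 139.9 TPM (134.7 ± 12.1). Its substrate LMNA reached 152.8 ± 8.41 TPM, with the B-type lamins LMNB1 at 448.0 ± 2.63 and LMNB2 at 279.0 ± 4.77. With canonical lengths the order of LMNA and LMNB2 turned (226.1 and 187.7 TPM), as did that of ULK1 and OGG1 (15.6 and 27.4 TPM), and ULK2 lay below the threshold at 0.841 TPM. All 12 reference genes were expressed, from SDHA at 5.50 ± 0.266 TPM to GAPDH, with PGK1 (1393 ± 36.6), RPLP0 (778.0 ± 20.6), YWHAZ (601.0 ± 21.3) and HPRT1 (373.0 ± 22.0) in between.

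The spread between the 3 libraries was small for most genes and not random for some. The median coefficient of variation was 13.9% for genes of 1 to 10 TPM, 5.08% for 10 to 100 TPM and 3.49% for 100 to 1000 TPM. Over all expressed genes the spread of the counts was 1.97 times that of counting error, and it grew from 1.18 times at 1 to 10 TPM to 31.1 times above 1000 TPM, where counting error is very small. FN1 and the giant scaffold gene AHNAK (838.8, 1173 and 968.6 TPM) had the largest excess over counting error. They were followed by MT-RNR2, HSP90AA1, the nuclear RNA MALAT1 (585.6, 809.7 and 776.7 TPM), the cytoskeletal linker DST (58.1, 89.2 and 76.6 TPM), THBS1, a matrix glycoprotein (832.1, 1087 and 1007 TPM), MT-ND4, MT-CO1 and MT-ND5.

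AHNAK, DST, MALAT1 and THBS1 shared an order, with VEH 2 highest and VEH 1 lowest. Transcript length moved with the high values of VEH 2, whereas VEH 1 and VEH 3 differed little by length. Of 329 genes with a canonical transcript of 10000 bases or more, 77.5% were highest in VEH 2 and 9.73% in VEH 1, compared with 15.0% in VEH 2 for the 459 genes below 1000 bases. The shift was small, at a median of 0.08 (VEH 2), -0.05 (VEH 1) and -0.04 (VEH 3) on the log2 scale relative to the mean of the libraries. The part of RNA quality or library preparation in it was not tested. The most abundant long noncoding RNAs were MALAT1 (724.0 ± 121.0 TPM), NORAD (658.1 ± 15.04), ENSG00000289474 (417.0 ± 55.6, over only 116 bases), PTCSC3 (222.2 ± 14.7) and SNHG1 (188.2 ± 2.69).

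Interferon-stimulated genes, the antiviral effectors induced by interferon receptors, were higher in 1 of the vehicle libraries as a group. Of 26 genes, 16 (61.5%) were expressed in every library, and 7 averaged 10 TPM or more. IFITM3, which blocks viral entry, stood at 96.7, 73.9 and 72.9 TPM, and IFI6, a mitochondrial survival protein, at 82.1, 42.7 and 30.6. ISG15 (27.2 ± 2.55 TPM), a ubiquitin-like modifier, IFI35 (22.4 ± 2.35) and HERC5 (11.8 ± 1.11), the ligase for ISG15, were lower.

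VEH 1 was the highest library for 23 of the 25 genes over the floor (92.0%), compared with 31.7% of all genes over the floor. The median ratio of VEH 1 to the mean of VEH 2 and VEH 3 was 1.70 for the 24 genes with a read in those libraries and 0.991 for all expressed genes. The ratio was 2 or more for 9 genes. BST2, which tethers virions, stood at 13.5 TPM in VEH 1 against 3.94 and 4.26, and IFITM1 at 4.45 against 1.12 and 1.78. IFI44L (15, 2 and 3 reads) and OAS2 (30, 6 and 9 reads) had ratios of 6.54 and 4.36 at low counts. No interferon gene of the cytokine list passed 1 TPM in every library, and IFNB1 and IFNA1 had no read in any. The number expressed was 16 whichever library was left out, and what set VEH 1 apart was not tested.

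**Figure D5:**
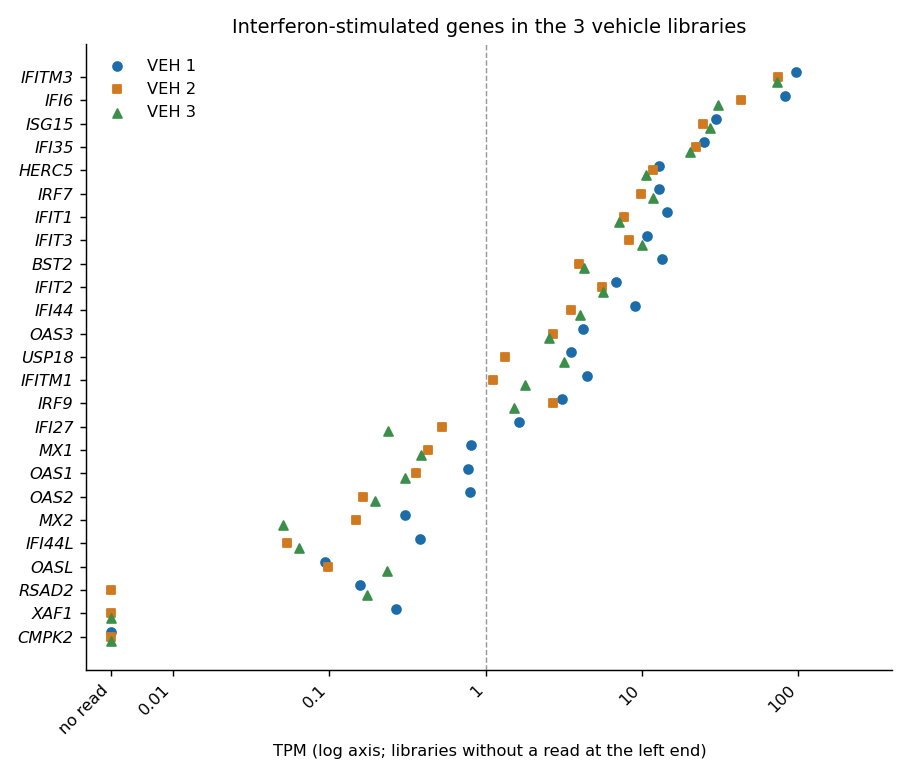
TPM of 25 of the 26 interferon-stimulated genes in each vehicle library, on a log axis, with libraries without a read at the left end and a dashed line at 1 TPM. VEH 1 (circles) is the rightmost point for most of them, with IFI6 at 82.1 against 42.7 and 30.6 TPM.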

How the data were processed

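RNA of HMC3 cells was sequenced from polyadenylated RNA (KAPA RNA HyperPrep). Per the labels and the study's methods, the authors trimmed reads with Trimmomatic 0.38 and aligned them to GRCh38 with STAR 2.7.1a. The deposited counts are unnormalized reads per gene and strand, and the deposited TPM, made by the authors, sum to the same total in each library. The annotation release and the length behind the TPM are not given in the sources used here. Gene lengths and shared exons were taken from GENCODE release 44, which matched 61399 of 61544 identifiers.

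Only the 3 VEH columns were used, and no comparison between groups and no statistical test was made. Of all reads, 0.883% to 0.953% were unmapped, 8.35% to 8.52% matched several places, 5.54% to 6.62% fell outside genes and 3.18% to 3.26% were ambiguous. These 4 summary lines were left out. Values are means with SD over 3 libraries, computed with Python 3.11.15 and pandas 2.3.3. The spread over counting error is the median Pearson chi-square of the counts per degree of freedom, divided by its median under counting error alone, and was tested on simulated data. Genes were named by rule: the 20 highest by TPM, 9 cell type markers, the 6 highest of each list, for several lists also its first 6 members, the 10 genes of at least 10 TPM with the largest spread and the 5 highest long noncoding RNAs. Other list members are named in places, chosen after their values were seen. The members and lists were chosen with earlier results of these data known. Alternatives were 0.5 and 5 TPM, CPM, the mean in place of every library, TPM rescaled to nuclear protein-coding genes, each library left out, and canonical lengths, the last added after the data were seen. Some genes named by these rules are not reported here.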

Additional observations from a re-analysis of the deposited data

How the results depend on the processing

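The number of expressed genes stayed within 1.5 times of 13786 under every alternative, from 10439 at 5 TPM to 15243 at 0.5 TPM (13353 with canonical lengths), and the counts for the microglial, mesenchymal and pericyte lists also kept within 1.5 times. The macrophage count of 2 fell to 0 at 5 TPM, 0 with CPM and 0 with canonical lengths, and the pan-leukocyte count of 5 fell to 2 at 5 TPM. Of the 26 other lists, 11 moved by more than 1.5 times at 5 TPM and 0 when any library was left out. The 10 most abundant genes held 8.59% of TPM, compared with 6.30% of counts, 7.07% of TPM rescaled to nuclear protein-coding genes and 7.30% with canonical lengths. The spread over counting error of 1.97 became 2.57 for genes at 10 TPM or more, and 1.86 to 2.10 when 1 library was left out. With canonical lengths 89 of 203 named genes moved by more than 1.5 times, so that the order of genes close in level is not fixed by these data. Depth limits the statements on absent genes: with 3 reads as the floor, a short gene such as TYROBP could be present at up to 1.03 TPM. No paired analysis was possible because no comparison between groups was made.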
